A study of Saccharomyces cerevisiae with 9 samples.

Results

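The 9 genes described here are those of lysine synthesis in budding yeast, found by gene symbol among 6215 genes measured in 9 libraries. They are LYS20, LYS21, LYS4, LYS12, LYS2, LYS5, LYS9, LYS1 and LYS14, and each symbol matched 1 row. Polyadenylated RNA was sequenced from 3 strains with 3 biological replicates each, all grown untreated in SC medium at 28 °C over 24 h. All were MATα haploids with the his3Δ1, leu2Δ0 and ura3Δ0 alleles. The wild type was BY4742, which also carries the lys2Δ0 deletion. The pil1 strain carried lys2Δ0 as well, with PIL1, the gene of a main eisosome protein, replaced by kanMX4. The triple mutant lacked SEG1, NCE102 and PIL1, and its genotype lists LYS2 and MET15 as present. The triple mutant thus differs from the other strains in its LYS2 marker as well as in eisosome genes (SEG1 and NCE102 against pil1, and PIL1 too against wild type), and these differences cannot be told apart in any comparison with it. The pil1 and wild type strains share the lys2 deletion, so the marker was constant between them. The labels call the replicates biological without saying how many clones or cultures they came from.

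Fungi make lysine by the alpha-aminoadipate pathway. Homocitrate synthase, present as the isozymes Lys20 and Lys21, joins 2-oxoglutarate and acetyl-CoA and is inhibited by lysine. Homoaconitase (Lys4) and homoisocitrate dehydrogenase (Lys12) carry the product to 2-oxoadipate, which is aminated to alpha-aminoadipate. Lys2 reduces alpha-aminoadipate to its semialdehyde, and does so only after Lys5 has attached a phosphopantetheine group to it. Lys9 and Lys1, both saccharopine dehydrogenases, turn the semialdehyde into lysine. The activator Lys14 raises transcription of pathway genes when the semialdehyde is present, and Gcn4 raises many amino acid synthesis genes during amino acid starvation. A strain without Lys2 makes no semialdehyde by this route and grows on lysine from the medium.

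Upstream sequences are shown for the 2 members that rose in the triple mutant (LYS20 and LYS14), for 2 that fell and hold letters of both activators (LYS1 and LYS12), for LYS9, which was not called and holds the letters of Lys14 at 2 places, and for LYS21, the isozyme of LYS20. Each run is 300 bases of the R64 reference (RefSeq), 5′ to 3′ on the gene's strand, and capitals mark matches to TCCNNNGGA (the core of the Lys14 site, which reads the same on both strands) or to TGACTC (the core of the Gcn4 site, which reads GAGTCA on the other strand). The stretch of LYS21 runs from base 400 to base 101 before its coding start, and the others end at the base before the start codon. LYS20 lies at chrIV:133137-133436 (+ strand), LYS14 at chrIV:512110-512409 (- strand), LYS1 at chrIX:420737-421036 (- strand), LYS12 at chrIX:187633-187932 (- strand), LYS9 at chrXIV:715389-715688 (- strand) and LYS21 at chrIV:226993-227292 (+ strand).
LYS20: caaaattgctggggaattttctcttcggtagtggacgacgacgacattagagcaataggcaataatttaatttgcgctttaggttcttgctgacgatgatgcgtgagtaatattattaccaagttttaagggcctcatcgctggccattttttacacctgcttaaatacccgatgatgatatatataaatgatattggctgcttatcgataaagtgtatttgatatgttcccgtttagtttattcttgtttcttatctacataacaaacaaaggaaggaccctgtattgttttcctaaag
LYS14: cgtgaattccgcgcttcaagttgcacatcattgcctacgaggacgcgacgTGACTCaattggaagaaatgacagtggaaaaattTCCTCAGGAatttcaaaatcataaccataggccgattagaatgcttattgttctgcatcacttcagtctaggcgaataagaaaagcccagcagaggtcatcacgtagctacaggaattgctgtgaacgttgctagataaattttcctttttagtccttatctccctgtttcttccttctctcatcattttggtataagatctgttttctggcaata
LYS1: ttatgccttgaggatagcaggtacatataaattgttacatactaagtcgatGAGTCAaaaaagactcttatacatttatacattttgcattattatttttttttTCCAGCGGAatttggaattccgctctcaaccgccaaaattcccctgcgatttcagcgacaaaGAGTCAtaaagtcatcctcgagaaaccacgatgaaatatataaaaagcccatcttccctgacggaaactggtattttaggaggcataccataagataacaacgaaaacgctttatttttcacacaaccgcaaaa
LYS12: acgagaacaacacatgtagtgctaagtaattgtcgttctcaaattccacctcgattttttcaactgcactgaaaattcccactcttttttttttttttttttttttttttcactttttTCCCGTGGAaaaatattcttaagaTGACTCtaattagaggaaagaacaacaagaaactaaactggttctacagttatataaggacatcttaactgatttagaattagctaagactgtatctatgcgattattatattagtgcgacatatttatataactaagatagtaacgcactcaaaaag
LYS9: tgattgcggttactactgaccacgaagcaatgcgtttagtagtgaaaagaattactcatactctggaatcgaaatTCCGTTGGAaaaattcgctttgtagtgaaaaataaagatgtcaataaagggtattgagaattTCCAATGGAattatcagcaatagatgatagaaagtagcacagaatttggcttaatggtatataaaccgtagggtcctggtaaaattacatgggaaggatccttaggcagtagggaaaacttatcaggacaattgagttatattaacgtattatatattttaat
LYS21: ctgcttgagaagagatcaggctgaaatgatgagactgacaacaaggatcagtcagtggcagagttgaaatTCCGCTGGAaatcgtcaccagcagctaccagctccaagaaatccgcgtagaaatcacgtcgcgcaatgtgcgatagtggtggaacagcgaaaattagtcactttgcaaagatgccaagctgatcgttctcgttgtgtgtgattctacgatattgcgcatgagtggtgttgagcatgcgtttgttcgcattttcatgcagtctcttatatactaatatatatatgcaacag

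Over 500 bases before the coding start, TCCNNNGGA was found in 5 of the 9 members, LYS1, LYS9, LYS12, LYS14 and LYS21, and in 5.96% of 6191 genes with a full window. TGACTC was found in 4 of the 9, LYS1, LYS2, LYS12 and LYS14, and in 12.5% of the same genes. LYS1 held TCCAGCGGA at base 196 before its start and GAGTCA at bases 249 and 134. LYS9 held TCCGTTGGA at base 225 and TCCAATGGA at base 163. LYS12 had TCCCGTGGA at base 182 followed by TGACTC at base 158. No match of 1 motif overlapped one of the other. A match of letters is a description of the sequence and not a measured site, and LYS20, LYS4 and LYS5 held neither set of letters in this window.

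Depth, recovered as whole reads from the deposited values, lay between 21064051 and 27014469 reads per library. The deleted genes followed their labels: PIL1 had at least 18558 reads in each wild type library, 118 to 149 in those of pil1 and 79 to 87 in those of the triple mutant, and SEG1 and NCE102 had at most 24 and 223 reads in the triple mutant. Of 4 MATα genes, MF(ALPHA)1, SAG1 and STE3 had 1664 to 8536 normalized reads over the 9 libraries and MF(ALPHA)2 had 182 to 364. Of 4 MATa genes none was at 0, with 257 to 872 for STE2 and 13.6 to 187 for MFA1, MFA2 and ASG7. Replicate 1 of the triple mutant stood apart from the other 2, with a chi-square per degree of freedom of 396.5 and 311.9 against them, where those gave 52.24 against each other. In the other strains replicate 2 stood apart. Its values were 191.3 and 150.4 in wild type, beside 68.1 for the remaining pair, and 146.2 and 102 in pil1, beside 36.14. Without triple mutant replicate 1 the calls of LYS20 (log2 fold change 0.65 against wild type), LYS14 (0.56), LYS1 (-0.64), LYS4 (-0.61) and LYS12 (-0.42), which are described further on, all held by limma.

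LYS2 (YBR115C, chrII:469748-473926, - strand, R64), the gene of the aminoadipate reductase, followed the genotypes in all 9 libraries. It had 0 reads in each of the 3 wild type and 3 pil1 libraries. In the triple mutant it had 24790, 31688 and 35639 normalized reads in replicates 1 to 3, where a normalized read is a read count divided by the size factor of its library, and these rest on 21787, 30209 and 28188 reads. Against a floor of 3 reads in the library where that floor is highest, the mean of 30706 ± 5491 (SD, n = 3) exceeded the wild type level at least 11128-fold and the pil1 level at least 10395-fold, with the floor covering counting error only. The difference is written in the genotypes, so it is a check of the labels.

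The genes on either side of LYS2 did not show the same pattern. RAD16, a gene of nucleotide excision repair that ends 127 bases from LYS2, had 10343, 4445 and 10528 normalized reads in wild type, 9247, 6771 and 8055 in the triple mutant, with 10884, 5027 and 9496 in pil1. Replicate 2 was the lowest library of RAD16 in every strain, and the 3 strains overlapped. TKL2, a transketolase gene 465 bases away on the other side, had 27026 to 41426 normalized reads in wild type and 28913 to 40122 in the triple mutant, with 24066 to 30229.9 in pil1. Neither gene was called in any of the 3 comparisons by limma, where the log2 fold change between triple mutant and wild type was 0.02 (SE 0.37) for RAD16 and 0.07 (SE 0.20) for TKL2.

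**Figure D1:**
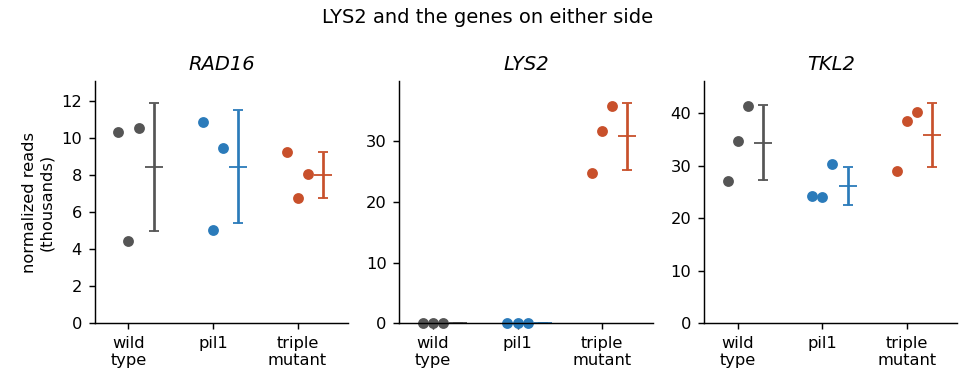
Normalized reads (linear axis from 0) of LYS2 and of the nearest measured gene on each side, in order along chromosome II. Each point is 1 library of wild type, pil1 or triple mutant, and bars give the mean ± SD of 3 libraries; LYS2 is at 0 in 6 libraries and between 24790 and 35639 in the triple mutant, while the neighbours overlap between strains.

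The other 8 genes of the pathway did not move as 1 group in the triple mutant. Against wild type, LYS20 and LYS14 were higher, LYS4, LYS12 and LYS1 were lower, and LYS21, LYS5 and LYS9 were not called. The called differences were between 1.43-fold and 1.75-fold, with a median log2 fold change over the 8 of -0.23, beside -0.01 over all genes tested. The 5 of 8 called are to be read against 60.9% of 5886 genes called in this comparison by limma (adjusted p under 0.05 by Benjamini-Hochberg), 30.1% higher and 30.9% lower. The share of members called (62.5%) was close to that background. In 6 of the 8 the libraries of both strains were fully separate, as in 65.6% of all genes tested. When libraries were scaled by total reads, which moved the median of all genes to -0.23, the split of called members became 2 higher and 5 lower, with LYS21 and LYS5 added, and that of all genes moved from 1770 higher and 1816 lower to 1029 and 2383.

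**Figure D2:**
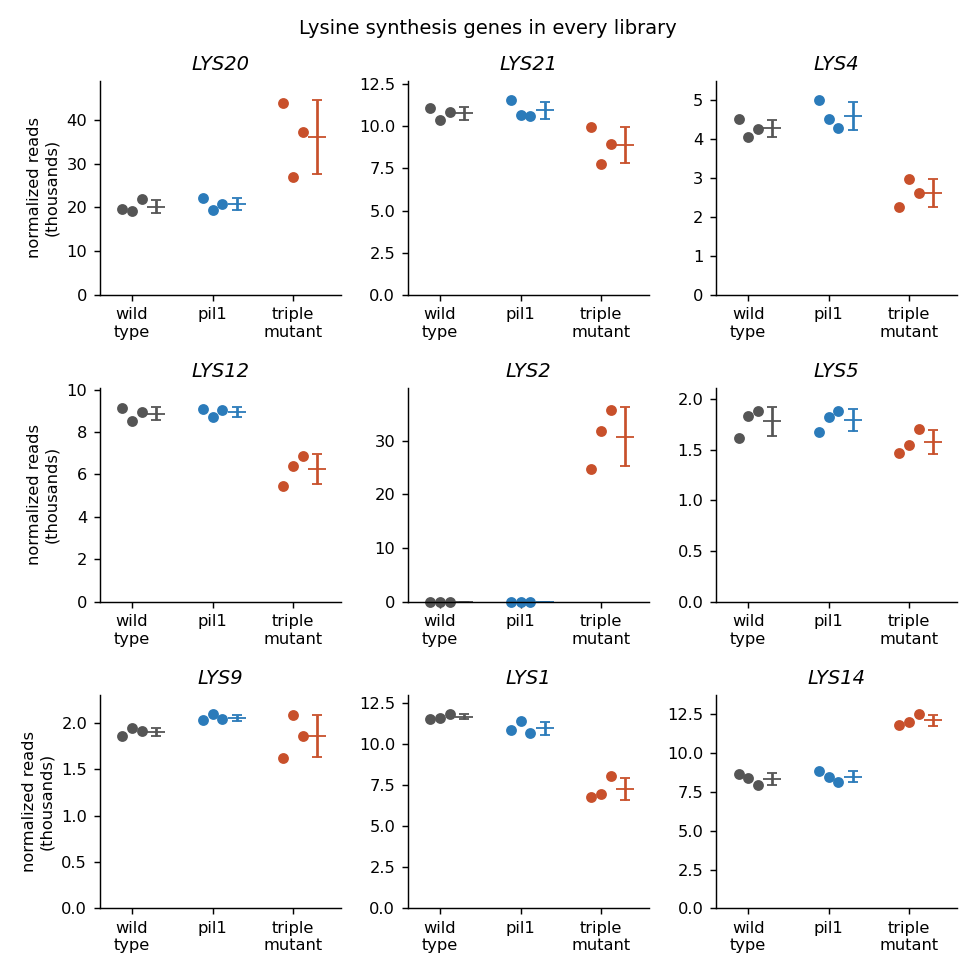
Normalized reads (linear axes from 0, a different scale in each panel) of the 9 lysine synthesis genes in every library. Points are the 3 libraries of each strain in replicate order and bars give mean ± SD; LYS20 and LYS14 lie higher in all 3 triple mutant libraries than in the other 6, LYS4, LYS12, LYS1 and LYS21 lie lower, and LYS5 and LYS9 overlap.

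At the first step of the pathway, LYS20 rose while its isozyme gene LYS21 was not called. LYS20 (YDL182W, chrIV:133437-134723, + strand) had 19614, 19088 and 21886 normalized reads in wild type and 22163, 19485 and 20881 in pil1. Its triple mutant values were 43845, 27018 and 37220. All 3 triple mutant libraries lay above the other 6, and replicate 1 was the highest and replicate 2 the lowest of them. LYS20 rose 1.75-fold against wild type (log2 fold change 0.81 with SE 0.18, limma adjusted p = 0.00350). LYS21 (YDL131W, chrIV:227393-228715, + strand) had 11078, 10355 and 10834 normalized reads in wild type and 11528, 10684 and 10610 in pil1. In the triple mutant the values were 9929, 7763 and 8943. Its triple mutant libraries all lay below the other 6, and its difference from wild type just missed the threshold (log2 fold change -0.28 with SE 0.11, limma adjusted p = 0.0506). It passed without triple mutant replicate 1 (log2 fold change -0.37, adjusted p = 0.0126 by limma).

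As a share of the reads of both isozymes, LYS20 made up 63.9%, 64.8% and 66.9% in wild type and 65.8%, 64.6% and 66.3% in pil1. In the triple mutant it made up 81.5%, 77.7% and 80.6%. The triple mutant stood above both other strains in every library. The mean share was 79.9% ± 2.02 (SD, n = 3) in the triple mutant against 65.2% ± 1.53 in wild type, and an exact two-sided permutation test gave p = 0.1, the smallest that 3 libraries against 3 allow. In pil1 the share was 65.6% ± 0.882, which differed from wild type by 0.351 percentage points (exact permutation p = 0.8).

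**Figure D3:**
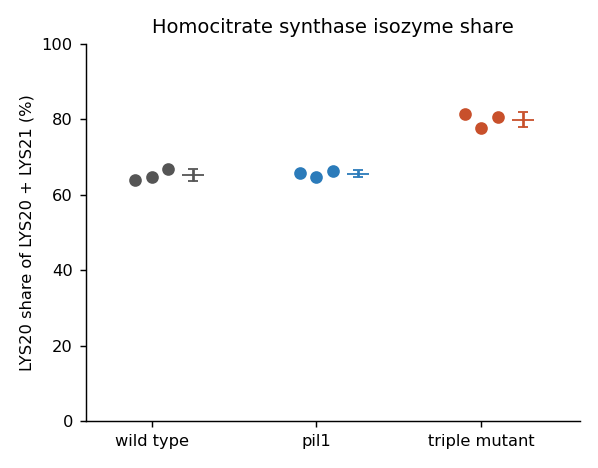
Share of LYS20 in the sum of LYS20 and LYS21 normalized reads (percent, axis from 0 to 100). Points are libraries and bars give mean ± SD of 3; the triple mutant libraries lie between 77.7% and 81.5% and the other 6 between 63.9% and 66.9%.

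Reads of the 2 isozyme genes are partly uncertain, because their coding sequences are 91.9% identical over 1278 aligned bases. They share a run of 278 identical bases (bases 337 to 614 of LYS20), and 368 of 1213 windows of 75 bases in LYS20 (30.3%) also occur in LYS21. The sources used here do not give how the authors treated reads with more than 1 place. None of the windows of 75 bases in the other 7 members occurs elsewhere in the genome. The stretch of 90 bases in which the isozyme genes differ most, at 25 positions, lies near the 3′ end of both genes, at chrIV:134562-134651 in LYS20 (coding bases 1126 to 1215) and chrIV:228560-228649 in LYS21 (coding bases 1168 to 1257). It is shown, with differing bases in capitals, as sequence by which reads of the pair can be told apart.
LYS20: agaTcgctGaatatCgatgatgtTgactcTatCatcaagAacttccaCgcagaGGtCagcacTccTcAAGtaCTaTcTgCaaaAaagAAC
LYS21: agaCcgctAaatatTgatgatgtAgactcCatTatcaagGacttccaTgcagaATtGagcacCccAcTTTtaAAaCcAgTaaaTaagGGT

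The next 2 enzymes were lower in the triple mutant. LYS4 (YDR234W, chrIV:931129-933210, + strand), homoaconitase, had 4503, 4060 and 4260 normalized reads in wild type and 4989, 4507 and 4293 in pil1. The triple mutant had 2245, 2968 and 2620. The highest triple mutant library lay below the lowest of the other 6. LYS4 was 1.65-fold lower than in wild type (log2 fold change -0.72 with SE 0.11, limma adjusted p = 0.000513). LYS12 (YIL094C, chrIX:186517-187632, - strand), homoisocitrate dehydrogenase, had 9127, 8541 and 8937 normalized reads in wild type and 9094, 8691 and 9052 in pil1. Its triple mutant values were 5473, 6380 and 6882. The groups again did not overlap, and LYS12 was 1.43-fold lower (log2 fold change -0.51 with SE 0.10, limma adjusted p = 0.00215). In both genes replicate 1 was the lowest triple mutant library, the one in which LYS20 was highest.

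LYS5 (YGL154C, chrVII:215278-216096, - strand) encodes the enzyme that activates Lys2. It had 1621, 1839 and 1882 normalized reads in wild type and 1674, 1821 and 1889 in pil1. In the triple mutant the values were 1472, 1549 and 1709. The ranges of the triple mutant and wild type overlapped, and LYS5 was not called (log2 fold change -0.17, 95% interval -0.38 to 0.04, adjusted p = 0.132 by limma).

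Of the last 2 enzymes, which act after Lys2, LYS1 was lower and LYS9 was not called. LYS9 (YNR050C, chrXIV:714048-715388, - strand), which forms saccharopine, had 1853, 1938 and 1911 normalized reads in wild type and 2032, 2093 and 2039 in pil1. The triple mutant had 1623, 2082 and 1861. The triple mutant libraries spanned the whole wild type range, and the log2 fold change was -0.04 (95% interval -0.25 to 0.17, limma adjusted p = 0.717), or 0.05 without triple mutant replicate 1. LYS1 (YIR034C, chrIX:419615-420736, - strand), which releases lysine from saccharopine, had 11516, 11598 and 11807 normalized reads in wild type and 10812, 11374 and 10635 in pil1. Its triple mutant values were 6794, 6925 and 8015. All triple mutant libraries lay below the other 6, and LYS1 was 1.61-fold lower than in wild type (log2 fold change -0.69 with SE 0.10, limma adjusted p = 0.000296). LYS9 and LYS1 both hold TCCNNNGGA upstream, as in the sequences above, and TGACTC was found only upstream of LYS1 among this pair.

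The transcript of the activator itself was higher. LYS14 (YDR034C, chrIV:509737-512109, - strand) had 8621, 8409 and 7922 normalized reads in wild type and 8820, 8467 and 8124 in pil1. In the triple mutant the values were 11793, 11960 and 12487. Its 3 triple mutant libraries were close together and all above the other 6. LYS14 rose 1.45-fold against wild type (log2 fold change 0.54 with SE 0.09, limma adjusted p = 0.000687). Of the 4 enzyme genes with TCCNNNGGA upstream, LYS1 and LYS12 fell while LYS9 and LYS21 were not called against wild type. LYS21 was still lower in all 3 triple mutant libraries than in the other strains. It was called lower against pil1 (limma adjusted p = 0.0360).

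**Figure D4:**
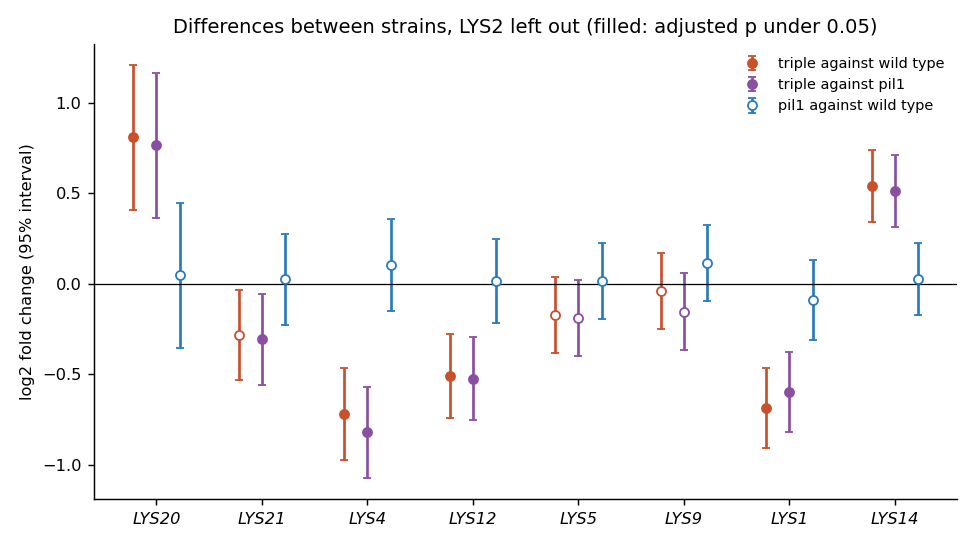
Log2 fold change (on the scale of log2 of the normalized value plus 1) with its 95% interval from limma for 8 lysine synthesis genes in 3 comparisons, LYS2 left out. Filled points have an adjusted p under 0.05; LYS20 and LYS14 are filled above 0 and LYS4, LYS12 and LYS1 below 0 in both comparisons with the triple mutant, LYS21 is filled against pil1 alone, and no point of pil1 against wild type is filled.

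Between pil1 and wild type, which share the lys2 deletion, none of the 8 genes was called, beside 0.017% of all genes (1 gene, PIL1) called by limma. At an unadjusted p under 0.05 limma listed 0 of the 8 and 59 of all genes. That is fewer than such a threshold gives when no gene differs. The spread was estimated over all 9 libraries, those of the triple mutant included, and the 95% intervals given below rest on it. With only the groups compared limma listed 116 of all genes, and with the replicate block 177. Either way 0 of the 8 were listed. edgeR and DESeq2 on the recovered reads also called 0 of the 8 and listed 0 of them at an unadjusted p under 0.05. Over all genes tested, edgeR called 1 and listed 57, and DESeq2 called 2 and listed 80. By limma, the log2 fold changes of the 8 lay between -0.09 for LYS1 and 0.11 for LYS9, with a median of 0.03, beside 0.01 over all genes tested. The widest 95% interval, that of LYS20, ran from -0.35 to 0.45. For LYS14 it ran from -0.17 to 0.23. In LYS1 and LYS9 the 3 libraries of pil1 did not overlap those of wild type, LYS1 being lower and LYS9 higher in pil1, which is 2 of 8 members beside 6.22% of all genes tested.

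Against pil1, with the same triple mutant libraries, limma called 6 of the 8 members, beside 62.9% of all genes tested (30.8% higher and 32.1% lower). The libraries were fully separate in 6 of the 8, beside 69.3% of all genes tested. LYS20 (log2 fold change 0.76, SE 0.18) and LYS14 (0.51, SE 0.09) were higher, and LYS4 (-0.82, SE 0.11), LYS1 (-0.60, SE 0.10), LYS12 (-0.52, SE 0.10) and LYS21 (-0.31, SE 0.11) were lower, with adjusted p between 0.000214 and 0.0360 by limma. LYS21 was the call nearest the threshold, and it was lost without any 1 of wild type replicate 3, the 3 pil1 replicates, or triple mutant replicates 2 and 3 (adjusted p 0.0539 to 0.117 by limma). LYS9 had a log2 fold change of -0.15 (SE 0.09), and was called without triple mutant replicate 2 (log2 fold change -0.24, adjusted p = 0.0354 by limma). With scaling by total reads, LYS14 was 0.25 higher on the log2 scale and no longer called (adjusted p = 0.0817 by limma). The split of called members became 1 higher and 6 lower. This scaling also moved the median of all genes to -0.27, and their split from 1813 higher and 1892 lower to 1023 and 2578.

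Levels of different genes are compared here as normalized reads per kilobase of coding length. In wild type the order was LYS20 (15692 ± 1156 per kilobase), LYS1 (10375 ± 134), LYS21 (8130 ± 278), LYS12 (7946 ± 268), LYS14 (3505 ± 151), LYS5 (2174 ± 171), LYS4 (2053 ± 107) and LYS9 (1418 ± 32.4), as mean ± SD over 3 libraries. LYS21 and LYS12 overlapped over the libraries, as did LYS5 and LYS4, and the other neighbours in the order did not. In the triple mutant LYS20 (27993 ± 6586) was again the highest, and LYS2 was next in order with 7348 ± 1314 per kilobase. LYS2 overlapped LYS21 (6711 ± 819), and LYS21, LYS1 (6457 ± 597), LYS12 (5596 ± 640) and LYS14 (5091 ± 152) each overlapped the neighbour above. LYS14 did not overlap LYS5, the next below it. LYS5 (1926 ± 148) stood apart from its neighbours, and LYS9 (1384 ± 171) and LYS4 (1254 ± 174) overlapped.

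Genes linked to the pathway were described from a list of 27, made up of further enzymes, regulators, 2-oxoglutarate supply, carriers, permeases and lysyl-tRNA synthetases. Of these 14 rose and 4 fell against wild type, with a median log2 fold change of 0.35 and 66.7% called, beside 60.9% of all genes. ARO8, an aminotransferase that can aminate 2-oxoadipate, had 14714, 11645 and 14193 normalized reads in wild type, and 10962, 16908 and 17605 were found in the triple mutant. The groups overlapped and ARO8 was not called (log2 fold change 0.14, SE 0.20).

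Several genes of 2-oxoglutarate supply and 1 carrier gene of 2-oxoacids rose. ODC1, a mitochondrial carrier of 2-oxoadipate and 2-oxoglutarate, rose from 654, 650 and 654 normalized reads to 11293, 4075 and 4655 (log2 fold change 3.20 with SE 0.32, limma adjusted p = 3.94e-05). Replicate 1 was again the highest library of ODC1. ODC2, a further 2-oxoacid carrier gene of the list, did not rise. Its mean was 4087 normalized reads in wild type and 3460 in the triple mutant. It was not called against wild type (log2 fold change -0.25, SE 0.12, limma adjusted p = 0.0892). Against pil1 it was called lower (log2 fold change -0.38, SE 0.12, limma adjusted p = 0.0190). Further rises were those of the citrate synthase gene CIT1 (2.87, SE 0.26), the aconitase gene ACO1 (1.79, SE 0.19) and the mitochondrial isocitrate dehydrogenase gene IDP1 (1.42, SE 0.19) on the log2 scale. RTG2, which relays mitochondrial signals to such genes, rose from 3410 to 3592 normalized reads in wild type to between 5220 and 5403 (0.59, SE 0.07). MKS1, a negative regulator in that pathway whose loss was found to raise lysine synthesis, had 2520, 2533 and 2363 normalized reads in wild type and 2353, 2512 and 2081 with the 3 deletions, and was not called.

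Genes of lysine and basic amino acid transport were split. LYP1, the lysine permease, had 23771, 13916 and 19297 normalized reads in the triple mutant and 12613, 7686 and 12402 in wild type. The groups did not overlap, and LYP1 rose 1.74-fold (log2 fold change 0.80 with SE 0.27, limma adjusted p = 0.0293). ALP1, an arginine permease gene of the same family, rose from 361 to 386 normalized reads to between 1121 and 1575 (log2 fold change 1.74, SE 0.15). YPQ2, a vacuolar transporter gene of basic amino acids, fell from 1054 to 1133 normalized reads to between 676 and 703 (-0.66, SE 0.07). GCN4 had 45008, 30419 and 37145 normalized reads in wild type. Its triple mutant values of 54237, 40094 and 48211 overlapped these, and it was not called (log2 fold change 0.35 with SE 0.19, limma adjusted p = 0.142).

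Among 49 other amino acid synthesis genes, 2 rose and 24 fell, so that 53.1% were called beside 60.9% of all genes (30.1% higher and 30.9% lower), with a median log2 fold change of -0.24 beside -0.23 for the 8 lysine genes and -0.01 for all genes. The 2 that rose, named after their values were seen, were LEU1 of leucine synthesis (1.87) and ARO1 of aromatic amino acid synthesis (0.66) on the log2 scale. The members with the smallest p were SER3 of serine synthesis (-1.35, SE 0.10), ARG5,6 of arginine synthesis (-1.57, SE 0.14), SER2 (-1.87, SE 0.19) and PRO3 of proline synthesis (-0.61, SE 0.07). Of the 8 lysine genes 2 rose, LYS20 and the activator gene LYS14, beside 30.1% of all genes. No test was made of the lysine genes against the other lists. Of the marker genes, HIS3 had 9274, 8069 and 9616 normalized reads in wild type and 3010, 5222 and 5511 in the triple mutant, and MET17, also named MET15, had 28256, 24381 and 23890 and 11032, 14596 and 18779. Both were lower in the triple mutant in every library, whereas LYS2 was the marker present there alone. Reads of HIS3 come from the his3Δ1 allele, which all strains carry. LEU2 and URA3 were not analysed here.

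**Figure D5:**
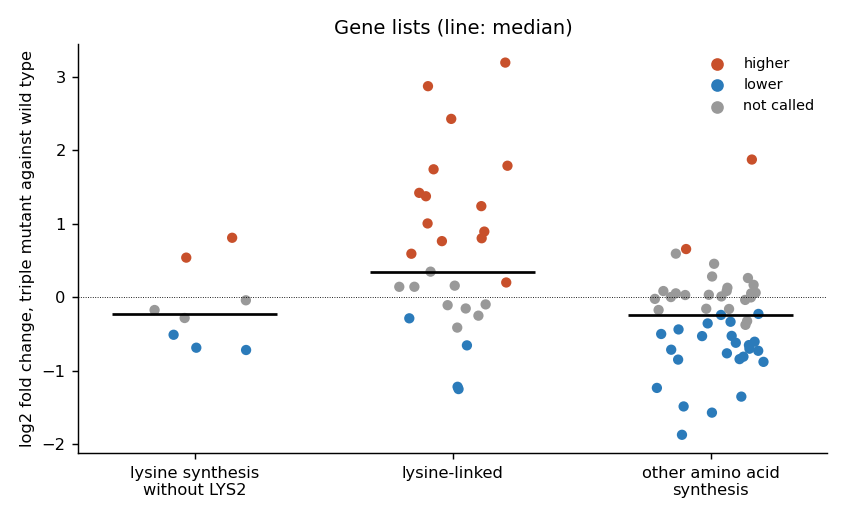
Log2 fold change of the triple mutant against wild type for 8 lysine synthesis genes without LYS2, 27 lysine-linked genes and 49 other amino acid synthesis genes, each point 1 gene, spread sideways for legibility. Colours give the limma call at an adjusted p under 0.05 and lines the medians of -0.23, 0.35 and -0.24.

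To see which genes followed the mean of 6 enzyme genes, the log2 levels of LYS1, LYS4, LYS9, LYS12, LYS20 and LYS21 were standardized and averaged in each library. All 5645 other genes whose mean reached 50 normalized reads were compared with that profile. The profile was lowest in the triple mutant (-0.95, -0.72 and -0.48 in replicates 1 to 3) and lay between 0.15 and 0.60 in the other 6 libraries. The 5 genes most like it over the 9 libraries were RRP3, an RNA helicase gene of ribosome synthesis (Pearson r = 0.992), and the ribosomal protein genes RPP1B (0.991), RPL32 (0.991), RPL4A (0.991) and RPS20 (0.989). These correlations describe libraries that fall into separate groups by strain, and 16.8% of the genes compared had r above 0.9. RPP1B is also the next gene after LYS21 on chromosome IV, 1190 bases away on the same strand. Of the 6 genes averaged, LYS12 (0.977), LYS4 (0.972) and LYS1 (0.946) followed the profile most closely, LYS9 less (0.554), and LYS20 went against it (-0.862). Each of the 6 is itself part of the profile, so a high r is partly built in.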

How the data were processed

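The authors deposited 2 tables of 6215 genes by 9 libraries. In the first, the deposited values are a normalized read signal, that is, counts divided by 1 size factor per library: dividing by the value that 1 read is worth gave whole reads for 100% of values in each column (tolerance 1e-06). The second table, deposited by the authors, holds log2 values after a transformation that these sources do not name. The submitters' processing notes name GSNAP, DESeq2, DESeq and build R64, without versions or roles. The sources used here name neither a counting tool nor a strand setting. No member overlaps another measured gene.

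Genes whose mean reached 10 normalized reads (5886, with all 9 members among them) were tested on log2(value + 1), a scale that understates the change of low genes, with limma 3.58.1 (lmFit, eBayes with trend and robust, R 4.3.3), all 9 libraries, group means and two-sided p adjusted by Benjamini-Hochberg over all genes. The test was also run on simulated data in which few genes changed and replicates of the same number shared no deviations. Against wild type 60.9% of genes were called in the triple mutant, so that run does not show how the test behaves there. The other 8 members rest on 1294 to 38534 reads per library. Alternatives were TMM scaling, scaling by total reads, the second table, other filters and a pseudocount of 5, only the groups compared, a replicate block, edgeR 4.0.16 and DESeq2 1.42.0 on recovered reads, and each library left out. P-values measure the spread between these libraries.

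The labels number replicates alike in each strain. Between wild type and pil1, deviations from the group means of libraries with 1 number correlated at 0.639, 0.833 and 0.579, which met the bar set for pairs, though the labels state no pairing. The reported tests use no pairing. With the replicate block, genes at an unadjusted p under 0.05 in pil1 against wild type went from 59 to 177 by limma, 1 gene was called as before, and 0 of the 8 members other than LYS2 were called. Between triple mutant and wild type the deviations correlated at 0.0499, 0.191 and 0.363, which did not meet that bar.

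The members, lists and tests were chosen with earlier results of these data known. The text names all members, the genes beside LYS2, marker genes, up to 8 called lysine-linked genes with the smallest p plus ARO8, LYP1, MKS1 and GCN4, 4 other amino acid genes, and the 5 genes most like the pathway profile; 1 further gene under this rule is not reported here. ODC2 lies outside this rule and was named after its values were seen. Motifs were searched in the R64 reference, which holds 6212 of the identifiers and lacks 3.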

Additional observations from a re-analysis of the deposited data

How the results depend on the processing

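Of the 8 members other than LYS2, between 5 and 7 were called when the triple mutant was set against wild type and between 5 and 7 against pil1 under all 19 alternatives, and 0 in pil1 against wild type. With 1 library left out it was 5 to 6, 5 to 6 and 0. Over all genes tested, the 19 alternatives called 3194 to 4024 against wild type and 3261 to 4162 against pil1. In pil1 against wild type they called 1 to 2 of all genes. No member that was called in a comparison changed direction under any alternative. LYS20, LYS1, LYS4 and LYS12 kept their calls in both comparisons with the triple mutant under all 19, and LYS14 under all but scaling by total reads against pil1. LYS21 against wild type passed under 6 alternatives (adjusted p 0.00217 to 0.155 by limma, edgeR or DESeq2 over all 19), and against pil1 it was lost under 7. With the replicate number as a block, 7 members differed between triple mutant and wild type (2 higher, 5 lower), LYS5 (adjusted p = 0.0234 by limma) and LYS21 (adjusted p = 0.0167 by limma) being added. The block called 7 against pil1, with LYS5 added (adjusted p = 0.0173 by limma), and 0 in pil1 against wild type. Calls over all 5886 genes tested rose with the block as well, from 3586 to 4024 against wild type and from 3705 to 4162 against pil1. The triple mutant shares a number with the others and is not shown to be paired with them. Each of the 8 members rests on at least 1294 reads per library. With 3 libraries per strain an exact permutation test of 1 value cannot go below p = 0.1.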
